A study of Mus musculus with 6 samples.

Results

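The 42 genes described here encode proteins of the lysosome, and all 42 were found by name among the 34745 genes of the expression table. They were chosen by name with earlier results of these data known, so their levels, their relation to the macrophage genes Csf1r and Cd68 and their difference between the diets are descriptions and support nothing. By role they comprise 11 proteases, 13 hydrolases of glycans, 6 proteins of lipid degradation, 7 membrane proteins, 4 proteins of the proton pump and the regulator Tfeb. All 42 passed the filter on low counts, which kept 15539 genes.

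RNA was sequenced from 6 tumours, 3 from mice fed a high cholesterol diet (HCD) and 3 from mice fed a normal diet (ND). The labels give every tumour the same origin, B16F10 cells (a mouse melanoma line) placed under the skin of the right flank of C57BL/6J mice, and diet is the one label in which the groups differ. No age or sex of the mice, composition of the feed or time of harvest was used. The tumours carry the numbers 1 to 3 within each diet, and nothing states that they came from separate animals, so a p-value here reflects no more than the spread among the 6 samples, which may be technical.

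Library totals ran from 20351637 to 26228074 counts. The labelled melanoma origin was checked against pigment cell genes. Tyr, Dct, Mlana and Oca2, which make melanin or form melanosomes, had 0 counts in all 6 libraries, which allows a level of up to 0.0228 CPM (counts scaled to a library of 1e+06). Of the other 6 genes on the list of 10, Pmel, the fibril protein of melanosomes, averaged 0.672 CPM over the 6 libraries, and Tyrp1, Sox10, Slc45a2 and Gpr143 had 1, 15, 8 and 6 counts over all 6. Mitf, a regulator of melanocytes that macrophages and osteoclasts also use, averaged 6.10 CPM and was present in all 6. A list of 10 hepatocyte genes held Alb, Afp, Hnf4a, Krt8, Krt18, Ttr, Apoa1, Apob, Foxa1 and Foxa2. It summed to 6836 to 9027 CPM in HCD tumours and 7156 to 8601 CPM in ND tumours. The sum is not split by gene here. Apart from Mitf, the pigment genes were thus at or near 0, against the label, and the samples are called tumours below with no cell of origin.

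Lysosomes are acidic compartments in which hydrolases break down proteins, glycans and lipids taken in from outside the cell or delivered by autophagy. The vacuolar ATPase pumps protons into them, heavily glycosylated proteins line their membrane, and TFEB, a basic helix-loop-helix factor, switches on many of their genes through E-box letters in promoters. Every cell uses lysosomes, and macrophages are known for a high content of them. Csf1r, the receptor for colony-stimulating factor that macrophages need, and Cd68, a glycoprotein of macrophage lysosomes and endosomes, served as the macrophage genes against which the lysosomal genes were read.

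The letters known for TFEB binding were looked up first. TFEB is known for acting on lysosomal genes, so a choice of lysosomal genes is not independent of these letters. Their share is a description. RefSeq promoter windows of the GRCm38.p6 build, 250 bases before to 50 after the start of a gene, were found for 38 of the 42 genes, with no entry for Asah1, Atp6v1b2, Ctsh or Ctsb. For 30 of the 38, the window continued into a GENCODE M21 transcript of the gene on the same strand. For the others that check found no match, so their start is less certain. The E-box CACGTG stood in 14 of 38 windows (36.8%), against 8.09% of the windows of all 27025 genes. That background was not limited to the 15539 tested genes. The longer form TCACGTGA, which contains the E-box, stood in 6 of 38 (15.8%), against 1.12% of all windows. The full letters of the CLEAR element known for TFEB, with G before and C after TCACGTGA, were in 0 of the 38 windows and in 0.37% of all. These letters read the same on both strands. The 6 genes with TCACGTGA were Atp6v0d1, Atp6v1a, Ctsa, Ctsd, Gla and Mcoln1, and their 8 sites are shown because they fall in 4 different role groups. Each line gives 28 bases 5′ to 3′ on the strand of the gene, with TCACGTGA in capitals.
Atp6v0d1, minus strand, chr8:105566051-105566078: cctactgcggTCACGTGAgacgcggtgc
Atp6v1a, minus strand, chr16:44139374-44139401: tttttttaaaTCACGTGAtaggcttaac
Ctsa, first site, plus strand, chr2:164833750-164833777: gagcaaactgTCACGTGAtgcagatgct
Ctsa, next site, plus strand, chr2:164833767-164833794: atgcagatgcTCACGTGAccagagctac
Ctsd, minus strand, chr7:142387909-142387936: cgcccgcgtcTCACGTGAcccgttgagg
Gla, nearer site, minus strand, chrX:134601183-134601210: gagatctcggTCACGTGAgcaactctcg
Gla, farther site, minus strand, chrX:134601216-134601243: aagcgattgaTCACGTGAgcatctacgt
Mcoln1, plus strand, chr8:3500463-3500490: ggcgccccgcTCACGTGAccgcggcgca

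The lysosomal genes spanned a wide range of levels. Mean FPKM over the 6 libraries (the deposited value, per length of the gene and per size of the library) ran from 0.909 ± 0.139 for Sgsh to 304 ± 15.2 for Cd63 (SD, n = 6), with a median of 23.3, and 31 of 42 genes reached 10 FPKM or more. The 6 genes with the highest mean FPKM were Cd63, Psap, Ctsz, Lamp1, Ctsl and Ctsd, so a tetraspanin, a saposin precursor, 3 proteases and a membrane glycoprotein led the set. The 42 genes together summed to 7950.0, 9828 and 7817 CPM in HCD 1, 2 and 3, and to 6691, 8207 and 7514 CPM in ND 1, 2 and 3. HCD 2 was the highest and ND 1 the lowest library, and the diets overlapped.

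**Figure D1:**
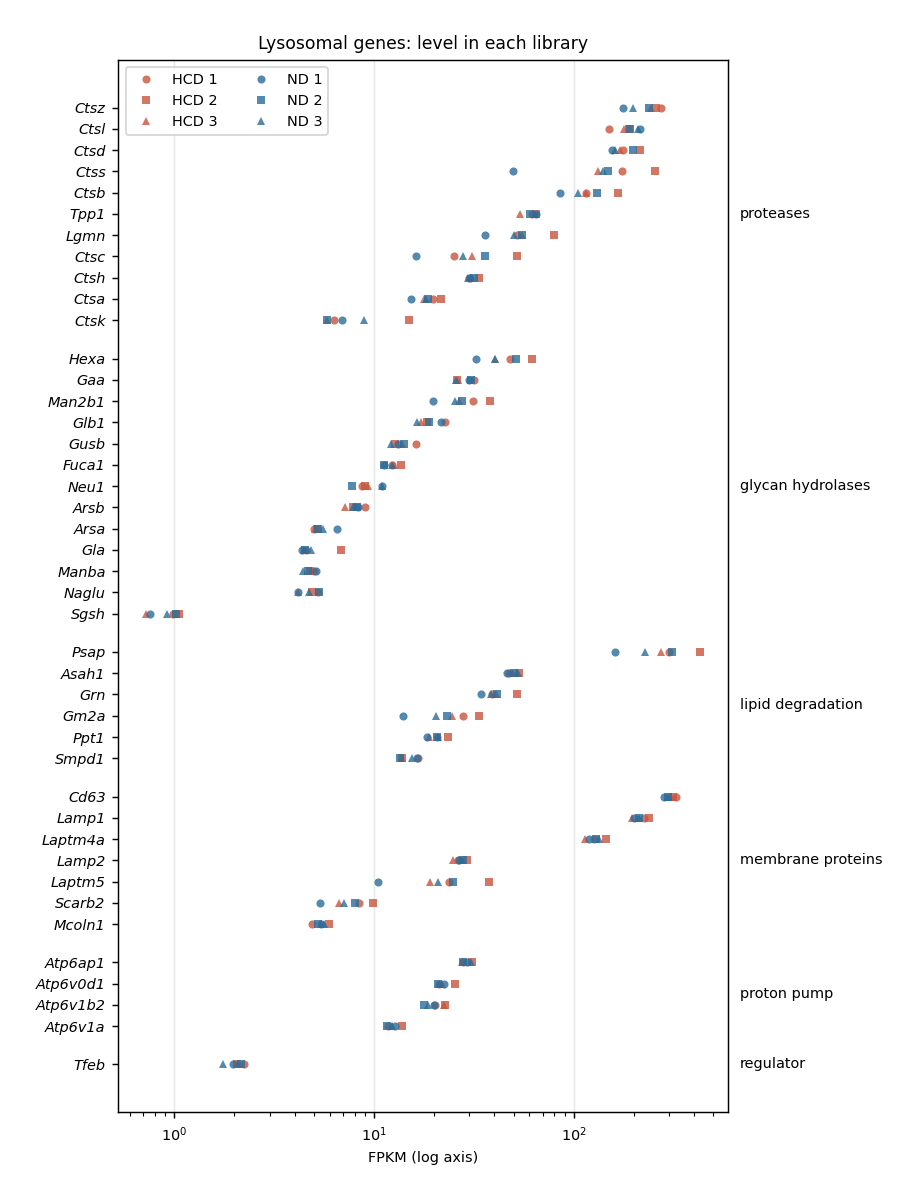
FPKM of the 42 lysosomal genes in each library on a log axis, with genes in rows grouped by role, HCD tumours in red and ND tumours in blue, and 1 marker shape per tumour number. Most genes vary little between libraries, while Ctss, Ctsc, Psap, Gm2a, Laptm5 and Scarb2 have HCD 2 as the highest and ND 1 as the lowest library.

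Most of the genes varied little between libraries and a minority varied widely. The ratio of the highest to the lowest library in CPM was under 1.5 for 30 of 42 genes and at least 2 for 7, with a median of 1.33, against 1.41 over all tested genes. HCD 2 was the highest library for 25 genes, ND 1 the lowest for 17, and both held for 14, a pattern that 10.5% of all tested genes had. ND 1 was the highest library for 6 genes. No share of all tested genes stands beside the counts of 25, 17 and 6, so nothing is read from them.

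The same pair of libraries stood at the ends of the macrophage genes. Csf1r had 114, 176 and 96.5 CPM in HCD 1, 2 and 3, against 64.6, 119 and 119 CPM in ND 1, 2 and 3. Cd68 had 33.3, 65.2 and 34.3 CPM in HCD tumours, against 24.7, 43.3 and 34.99 CPM in ND tumours. Both were highest in HCD 2 and lowest in ND 1, and the diets overlapped. Summed CPM of 21 macrophage markers, all 21 tested, was 1448, 2471 and 1228 in HCD tumours, against 767, 1581 and 1372 in ND tumours. In bulk tumours, fewer cells of a type and less RNA per cell cannot be told apart. Among the lists of other cell types, some were also highest in HCD 2 and lowest in ND 1, and some were not. The 12 T cell genes summed to 120, 164 and 71.9 CPM in HCD tumours and to 24.5, 84.8 and 101 CPM in ND tumours. B cell genes summed to 194, 238 and 31.3 CPM in HCD tumours and to 36.1, 178 and 83.2 CPM in ND tumours. Their lowest library was HCD 3. Endothelial genes were highest in HCD 2 (422 CPM) and lowest in ND 1 (208 CPM). Neutrophil genes were highest in ND 1, with 200 CPM there and 101 CPM in HCD 2. Fibroblast genes were also highest in ND 1, with 4183 CPM there and 3963 CPM in HCD 2. Hepatocyte genes were lowest in HCD 2 (6836 CPM). The part of these cell types in the levels of the lysosomal genes was not tested.

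Correlations with Csf1r and Cd68 were taken over log2 CPM in the 6 libraries for all tested genes, and with 6 libraries each r rests on few points. Of the 42 genes, 11 (26.2%) reached a Pearson r of at least 0.9 with Csf1r, against 5.52% of all tested genes. The 11 were Laptm5, Ctsa, Ctss, Scarb2, Ppt1, Hexa, Lgmn, Man2b1, Ctsc, Psap and Ctsb. With Cd68, 10 of 42 (23.8%) reached that r, against 4.19% of all tested genes, and 8 reached it with both, against 2.92%. The median r of the members was 0.60 with Csf1r and 0.63 with Cd68, against -0.03 and -0.02 over all genes. No gene of any kind passed a Benjamini-Hochberg threshold of 0.05 on the exact permutation p over the 720 pairings: the smallest adjusted p was 0.225 for Csf1r and 0.298 for Cd68. The smallest p that 720 pairings can give is 0.00139. Adjusted over 15538 genes, even a perfect r of a single gene could not pass. The lack of calls, and the adjusted p of each gene below, therefore say nothing on how strong a relation is. These high r leaned on HCD 2 and ND 1, the libraries farthest from the median of both macrophage genes. Over the remaining libraries Csf1r ran only from 96.5 to 119 CPM, with HCD 3 apart from the others. Cd68 ran from 33.3 to 43.3 CPM there, with ND 2 apart. A lower r is partly built into this narrower range, so whether a relation holds among those libraries cannot be told. Without HCD 2 and ND 1, 3 of 42 genes (Ppt1, Sgsh and Laptm4a) reached 0.9 with Csf1r, against 5.97% of all genes. With Cd68, 0 reached it, against 3.42%. Of the macrophage markers, 13 of 20 reached 0.9 with Csf1r over the 6 libraries. The T cell genes had a larger share, 10 of 12, so such an r with Csf1r is not particular to macrophage genes. With Cd68, 12 macrophage markers and 0 T cell genes reached it. Among listed B cell, neutrophil and endothelial genes, 0 reached it with Csf1r.

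**Figure D2:**
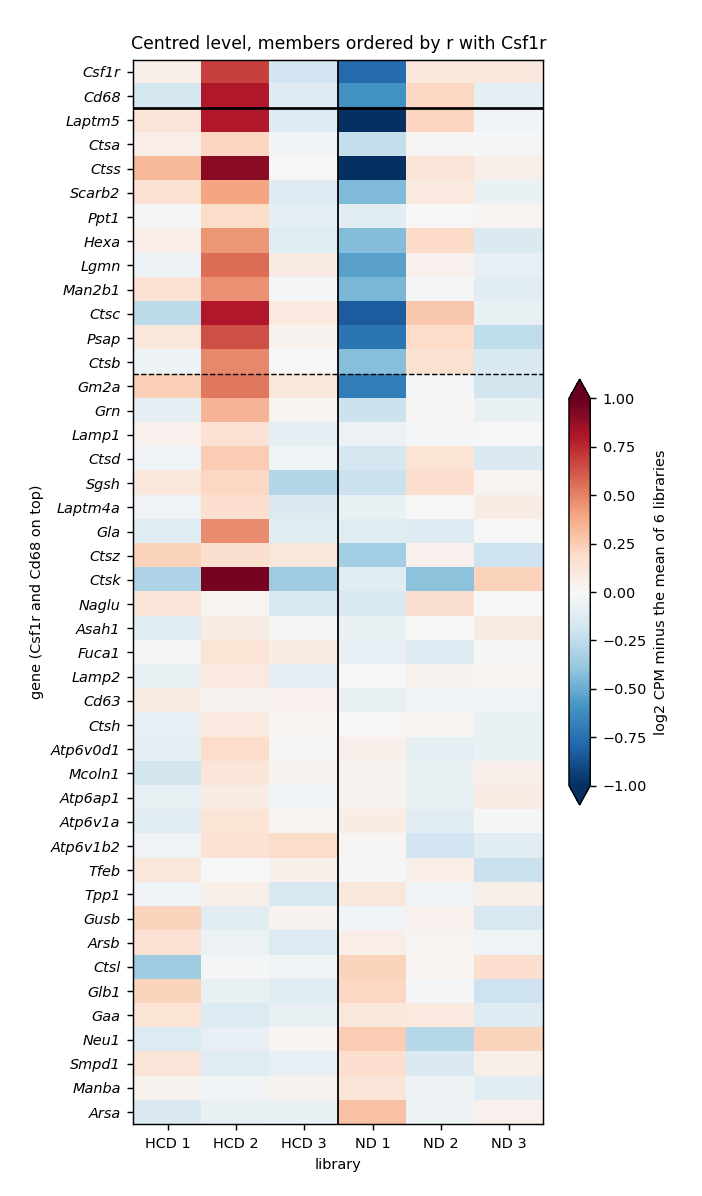
Log2 CPM minus the mean of the 6 libraries for Csf1r, Cd68 and the 42 lysosomal genes, with libraries in columns (HCD left, ND right) and genes ordered by Pearson r with Csf1r; the dashed line marks r = 0.9 and the color scale ends at 1 on either side. The genes above the dashed line are red in HCD 2 and blue in ND 1, and the genes at the bottom, from Tpp1 to Arsa, are not.

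The proteases held both the widest and some of the narrowest spreads. Ctss, the cysteine protease that trims the invariant chain of MHC class II in antigen-presenting cells (chr3:95526786-95556403, GRCm38), had 307, 456 and 244 CPM in HCD 1, 2 and 3, against 90.7, 266 and 253 CPM in ND 1, 2 and 3. ND 1 was the lowest library by far and HCD 2 the highest, a ratio of 5.02, and the other 4 lay together across the diets. Its Pearson r with Csf1r was 0.96 and its Spearman rho 0.83 (exact permutation p = 0.00972 and 0.0583, adjusted p = 0.226 and 0.432). Without HCD 2 and ND 1 its r was 0.43, over the narrow range of Csf1r that remained. On log2 axes its slope was 1.57 per unit of Csf1r.

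Ctsc, the dipeptidyl peptidase that activates serine proteases of granules, had 167, 347 and 213 CPM in HCD tumours, against 112, 239.9 and 189.5 CPM in ND tumours. Lgmn, the endopeptidase that cuts after asparagine, had 164, 252 and 181 CPM in HCD tumours, against 117, 176 and 162 CPM in ND tumours. Ctsb, a cysteine protease of broad use, had 536, 776 and 554 CPM in HCD tumours, against 414, 616 and 499 CPM in ND tumours. In these genes too HCD 2 was the highest and ND 1 the lowest library, and the diets overlapped. Their Pearson r with Csf1r was 0.91, 0.93 and 0.91 (Spearman rho 0.83, 0.60 and 0.77, exact permutation p = 0.0347, 0.0597 and 0.0403 for r). Without those libraries r was -0.10, -0.66 and -0.01, over the narrow range of Csf1r that remained. Against Cd68, Ctsb had r = 0.98 and rho = 0.83 (exact permutation p = 0.00694 and 0.0583), and Ctsc had r = 0.97 and rho = 0.94 (exact permutation p = 0.00833 for r). Without those libraries these r were 0.80 and 0.82.

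Ctsa, the carboxypeptidase that shields beta-galactosidase and neuraminidase in a complex, had 184, 205 and 173 CPM in HCD tumours, against 149, 177 and 173 CPM in ND tumours. It followed Csf1r in a narrow range, with a ratio of 1.37 between the highest and lowest library, r = 0.97 and rho = 0.83 (exact permutation p = 0.0208 for r), and r = 0.34 without HCD 2 and ND 1. Ctsd, the main aspartic protease of lysosomes, had 674, 826 and 674 CPM in HCD tumours, against 614, 759 and 627 CPM in ND tumours. Its r with Csf1r was 0.80 and its rho 0.77 (exact permutation p = 0.0472 for r), and r was 0.14 without those libraries. With Cd68 it had r = 0.93 and rho = 0.83 (exact permutation p = 0.00694 for r), and r = 0.83 without them. Both genes carry TCACGTGA in the windows shown above, Ctsa at a pair of sites.

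Ctsz, a carboxypeptidase of the cathepsin family (chr2:174427493-174439039), was the protease with the highest mean FPKM, 232 ± 37.0 (SD, n = 6). It had 387, 369 and 357 CPM in HCD tumours, against 261, 339.7 and 285 CPM in ND tumours. Each HCD library was above each ND library. Ctsl, a cysteine protease that also processes hormones and antigens (chr13:64359337-64370890), had 289, 366 and 358 CPM in HCD tumours, against 431, 374 and 416 CPM in ND tumours. Each HCD library was below each ND library, and the r of Ctsl with Csf1r was -0.35, and 0.17 without HCD 2 and ND 1. Tpp1, which removes tripeptides, and Ctsh, an aminopeptidase, stayed within a narrow band, at 209 ± 15.7 CPM in HCD and 222 ± 11.8 CPM in ND tumours for Tpp1 (SD, n = 3 each) and a ratio of 1.13 between the highest and lowest library for Ctsh.

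Ctsk, the collagenase of osteoclasts, had 9.35, 22.5 and 9.01 CPM in HCD tumours, against 10.7, 8.70 and 13.5 CPM in ND tumours. Only HCD 2 stood apart, above the other 5 libraries of both diets. Ctsk lies next to Ctss (chr3:95499256-95509362), with 17423 bases and 0 protein-coding genes between them, and the neighbours ranked the libraries differently: ND 1, lowest for Ctss, was above 3 other libraries for Ctsk. A list of osteoclast genes, 5 of 7 tested, summed to 124, 147 and 136 CPM in HCD tumours and to 142, 131 and 131 CPM in ND tumours.

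Among the 13 hydrolases of glycans, 2 (15.4%) reached r of at least 0.9 with Csf1r, against 5.52% of all tested genes, and 7 had a negative r. The median r over all tested genes was -0.03, so a negative r in 7 of 13 is near the background. Nothing is read from these counts. Hexa, the alpha subunit of beta-hexosaminidase and the hydrolase with the highest mean FPKM (45.8 ± 10.2, SD, n = 6), had 87.8, 114 and 76.8 CPM in HCD tumours, against 61.9, 95.3 and 75.7 CPM in ND tumours. Man2b1, the acidic alpha-mannosidase (chr8:85083270-85098282), had 132, 164 and 118 CPM in HCD tumours, against 87.1, 118 and 110.1 CPM in ND tumours. Both were highest in HCD 2 and lowest in ND 1. Their r with Csf1r was 0.93 and 0.92 and their rho 0.83 and 0.71 (exact permutation p = 0.0208 and 0.0347 for r). Without those libraries r was 0.48 and -0.08, over the narrow range of Csf1r that remained.

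Gusb, beta-glucuronidase, had 128, 101 and 112 CPM in HCD tumours, against 107, 113 and 97.7 CPM in ND tumours. It showed no such order, with r = -0.20 and rho = -0.20 (exact permutation p = 0.739 for r) and r = -0.16 without HCD 2 and ND 1. Arsa, the sulfatase that acts on sulfatide, had 33.0, 34.7 and 34.9 CPM in HCD tumours, against 44.8, 35.3 and 37.8 CPM in ND tumours, so each HCD library was below each ND library. Its r with Csf1r was -0.73. The remaining glycan hydrolases had mean FPKM from 0.909 (Sgsh, which acts on heparan sulfate) to 28.3 (Gaa, which degrades glycogen). Glb1, Neu1, Manba, Arsb and Gaa, which act on galactosides, sialic acids, mannosides, dermatan sulfate and glycogen, had r from -0.70 to -0.27 with Csf1r. Without HCD 2 and ND 1 the r of Arsb (0.62), Gaa (0.31), Glb1 (0.15) and Arsa (0.28) was positive. That of Neu1 (-0.17) and Manba (-0.65) was negative. As Csf1r spanned a narrow range over the remaining libraries, nothing is read from these signs.

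Of the 6 proteins of lipid degradation, Psap, the precursor of the saposins that present sphingolipids to their hydrolases (chr10:60277627-60302597), had the highest FPKM, 284 ± 90.5 (SD, n = 6). It had 1172, 1696 and 1112 CPM in HCD tumours, against 655, 1234 and 911 CPM in ND tumours. HCD 2 was the highest and ND 1 the lowest library, a ratio of 2.59, and ND 2 lay above HCD 1 and HCD 3. Its r with Csf1r was 0.91 and its rho 0.83 (exact permutation p = 0.0347 for r), and r was -0.11 without those libraries. Grn, the progranulin gene, had 277, 374 and 301 CPM in HCD tumours, against 254, 297 and 281 CPM in ND tumours.

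Gm2a, the activator that hands GM2 ganglioside to beta-hexosaminidase (chr11:55098115-55113029), had 112, 137 and 103 CPM in HCD tumours, against 59.2, 94.5 and 84.0 CPM in ND tumours. Each HCD library was above each ND library. Gm2a and Hexa act on the same lipid, and both were highest in HCD 2 and lowest in ND 1. Ppt1, which removes palmitate from proteins, had 116, 133 and 110.2 CPM in HCD tumours, against 108, 117 and 119 CPM in ND tumours. Its range was narrow, yet it followed Csf1r with r = 0.93 and rho = 0.94 (exact permutation p = 0.00833 and 0.0167, adjusted p = 0.226 and 0.331), and r was 0.97 without HCD 2 and ND 1. Asah1, acid ceramidase, and Smpd1, acid sphingomyelinase, had r of 0.59 and -0.63, and of 0.034 and 0.24 without those libraries.

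**Figure D3:**
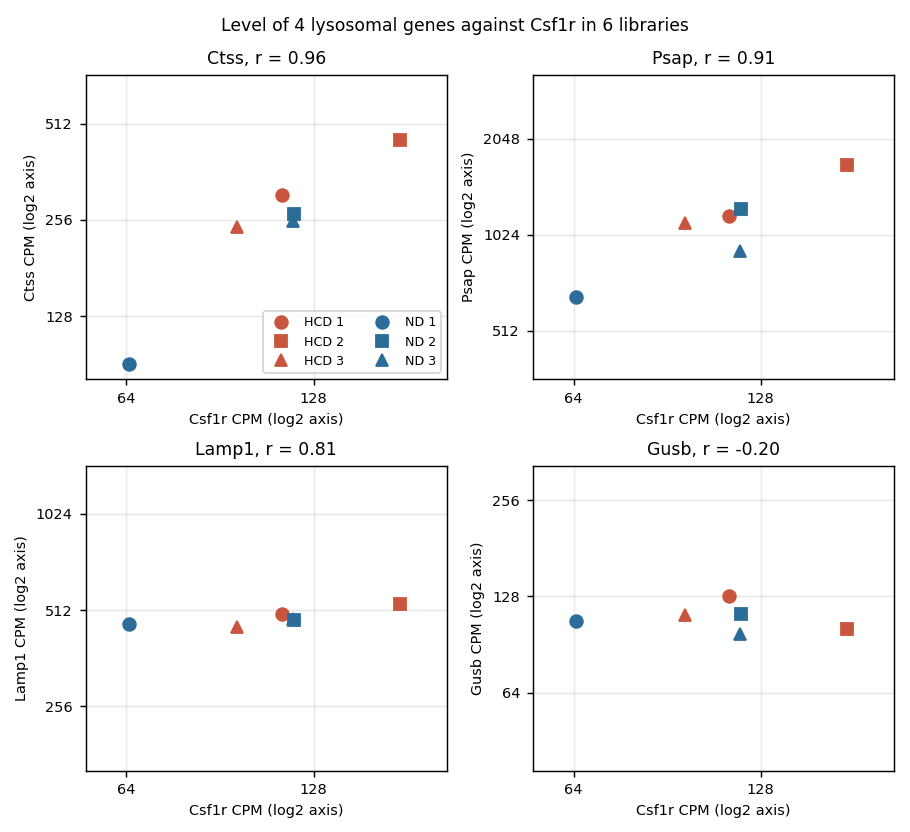
CPM of Ctss, Psap, Lamp1 and Gusb against CPM of Csf1r in the 6 libraries, both on log2 axes, with HCD tumours in red, ND tumours in blue and 1 marker shape per tumour number. HCD 2 and ND 1 form the ends of the Csf1r axis; Ctss spans 90.7 to 456 CPM along it, Lamp1 only 452 to 534 CPM, and Gusb does not follow it.

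The 7 membrane proteins held a pair of genes that followed Csf1r with wide ranges and several that barely varied. Laptm5, a lysosomal membrane protein of blood cells (chr4:130913125-130936141), had 128, 205 and 108 CPM in HCD tumours, against 59.1, 136 and 116 CPM in ND tumours. HCD 2 was the highest and ND 1 the lowest library, and the diets overlapped. Laptm5 had the highest r with Csf1r of the 42 genes, 0.99, with rho = 0.94 (exact permutation p = 0.00417 and 0.0167, adjusted p = 0.225 and 0.331), and r was 0.73 without those libraries. Scarb2, the receptor that carries glucocerebrosidase to lysosomes, had r = 0.96 and rho = 0.83 (exact permutation p = 0.00972 for r), and 0.61 without them. The related Laptm4a, known from many cell types, had 221, 255 and 205 CPM in HCD tumours, against 217, 227 and 239 CPM in ND tumours, with r = 0.76, rho = 0.89 and r = 0.92 without them (exact permutation p = 0.0833 for r over 6 libraries).

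Lamp1, the most used marker of the lysosomal membrane, had 496, 534 and 452 CPM in HCD tumours, against 463, 475 and 480.3 CPM in ND tumours. Cd63, a tetraspanin of late endosomes and exosomes (chr10:128900989-128912822), had 329, 321 and 323 CPM in HCD tumours, against 297, 304 and 306 CPM in ND tumours. Mcoln1, the cation channel that releases calcium from lysosomes, had 25.2, 31.2 and 29.3 CPM in HCD tumours, against 29.3, 27.3 and 29.6 CPM in ND tumours. Cd63 was the only membrane protein in which the diets did not overlap, HCD being higher, and its highest library was 1.11 times its lowest. Lamp1 and Mcoln1 overlapped between the diets.

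Of the 4 proteins of the proton pump, 0 reached r of at least 0.9 with Csf1r or Cd68, where 5.52% and 4.19% of all genes did, so a count of 0 in 4 is at the background. Their r with Csf1r ran from 0.05 to 0.23. Atp6ap1, an accessory subunit and the one with the highest mean FPKM (29.0 ± 1.43, SD, n = 6), had 182, 202 and 187 CPM in HCD tumours, against 197, 183 and 203 CPM in ND tumours. Atp6v0d1, of the membrane sector, had 44.3, 53.6 and 47.6 CPM in HCD tumours, against 48.8, 44.0 and 44.9 CPM in ND tumours. Atp6v1b2, of the catalytic sector, had 129, 146 and 151 CPM in HCD tumours, against 134, 116 and 122 CPM in ND tumours. The diets overlapped in each. Tfeb, the regulator (chr17:47737030-47792419), had 20.2, 18.8 and 19.5 CPM in HCD tumours, against 18.5, 19.7 and 16.1 CPM in ND tumours, with r = -0.01 with Csf1r and a mean of 2.04 ± 0.171 FPKM (SD, n = 6).

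The promoter letters were then set beside the relation to Csf1r. Of the genes with a promoter window, 2 of 14 with CACGTG and 8 of 24 without it had r of at least 0.9. Of the 6 with TCACGTGA, whose sites are printed above, 1 (Ctsa) had such an r, against 9 of 32 without it. The median log2 fold change between the diets was 0.10 with TCACGTGA and 0.082 without it, and for CACGTG the order was the other way, 0.026 with it and 0.12 without it. A match of letters is a description and shows no binding.

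The diet comparison asked whether the lysosomal genes differed between HCD and ND tumours. In edgeR's quasi-likelihood test with Benjamini-Hochberg adjustment over 15539 genes, 0 of 42 genes were called at 0.05, and the background was also 0 (0% called higher and 0% called lower). The smallest adjusted p of the 42 was 0.839. The median log2 fold change, HCD over ND, was 0.09, with 29 genes positive and 13 negative, beside a median of 0.01 and 53.0% positive over all tested genes. That median was 0.015 without HCD 2 and -0.00465 without HCD 2 and ND 1 together, and 0.095 without ND 1 alone, so HCD 2 was the single library it rested on. At an unadjusted p under 0.05, 3 members were higher (Ctsz, Gm2a and Man2b1), against 1.81% of all genes, and 1 was lower (Ctsl), against 3.48%. The diets did not overlap for 5 members: HCD was above ND for Ctsz, Gm2a and Cd63, 3 of 42 against 4.75% of all genes, and below ND for Ctsl and Arsa, 2 of 42 against 6.36%. Each of these counts is 3 genes or fewer, and nothing is read from them.

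The sizes of the differences and their errors differed much between genes. Ctss averaged 335 ± 109 CPM in HCD tumours and 204 ± 97.9 CPM in ND tumours (SD, n = 3 each), and its log2 fold change was 0.72 ± 0.42 (SE; 95% interval -0.26 to 1.70; edgeR adjusted p = 0.839). Gm2a averaged 118 ± 17.6 CPM in HCD tumours and 79.2 ± 18.1 CPM in ND tumours, a log2 fold change of 0.57 ± 0.18 (SE; interval 0.13 to 1.01; edgeR adjusted p = 0.839). For Psap the means were 1326 ± 321 CPM in HCD tumours and 934 ± 290.2 CPM in ND tumours, and the log2 fold change was 0.51 ± 0.25 (SE). For Laptm5 they were 147 ± 51.4 CPM in HCD tumours and 104 ± 40.0 CPM in ND tumours, with a log2 fold change of 0.50 ± 0.35 (SE). These sizes were smaller without the tumours at the ends of the macrophage genes. In each of these genes HCD 2 was the highest HCD library and ND 1 the lowest ND library. Leaving them out must therefore lower a positive value, and the drop itself is not a result. Ctss had a log2 fold change of 0.44 without HCD 2, 0.37 without ND 1 and 0.082 without both. Psap had 0.30, 0.31 and 0.090 in the same order, Laptm5 0.19, 0.22 and -0.095, and Gm2a 0.45, 0.40 and 0.27.

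Man2b1 averaged 138 ± 23.3 CPM in HCD tumours and 105 ± 16.2 CPM in ND tumours, a log2 fold change of 0.39 ± 0.15 (SE), which was 0.26 without HCD 2 and 0.13 without HCD 2 and ND 1 together. Ctsz averaged 371 ± 15.01 CPM in HCD tumours and 295 ± 40.4 CPM in ND tumours, a log2 fold change of 0.33 ± 0.10 (SE; interval 0.09 to 0.57; edgeR adjusted p = 0.839). Ctsl averaged 338 ± 42.3 CPM in HCD tumours and 407 ± 29.4 CPM in ND tumours, a log2 fold change of -0.27 ± 0.11 (SE; interval -0.52 to -0.02; edgeR adjusted p = 0.839). The abundant cathepsins Ctsz and Ctsl thus differed in opposite directions, neither past the adjusted threshold. The intervals of Lamp1 (log2 fold change 0.06 ± 0.07 SE), Atp6ap1 (-0.03 ± 0.07 SE) and Cd63 (0.10 ± 0.05 SE) were narrow, and those of Ctss, Ctsk and Laptm5 wide. The log2 fold change of Ctsk was 0.31 ± 0.38 (SE) and was -0.25 without HCD 2, so its sign rested on that tumour. Csf1r itself had a log2 fold change of 0.35 ± 0.30 (SE; edgeR adjusted p = 0.850).

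**Figure D4:**
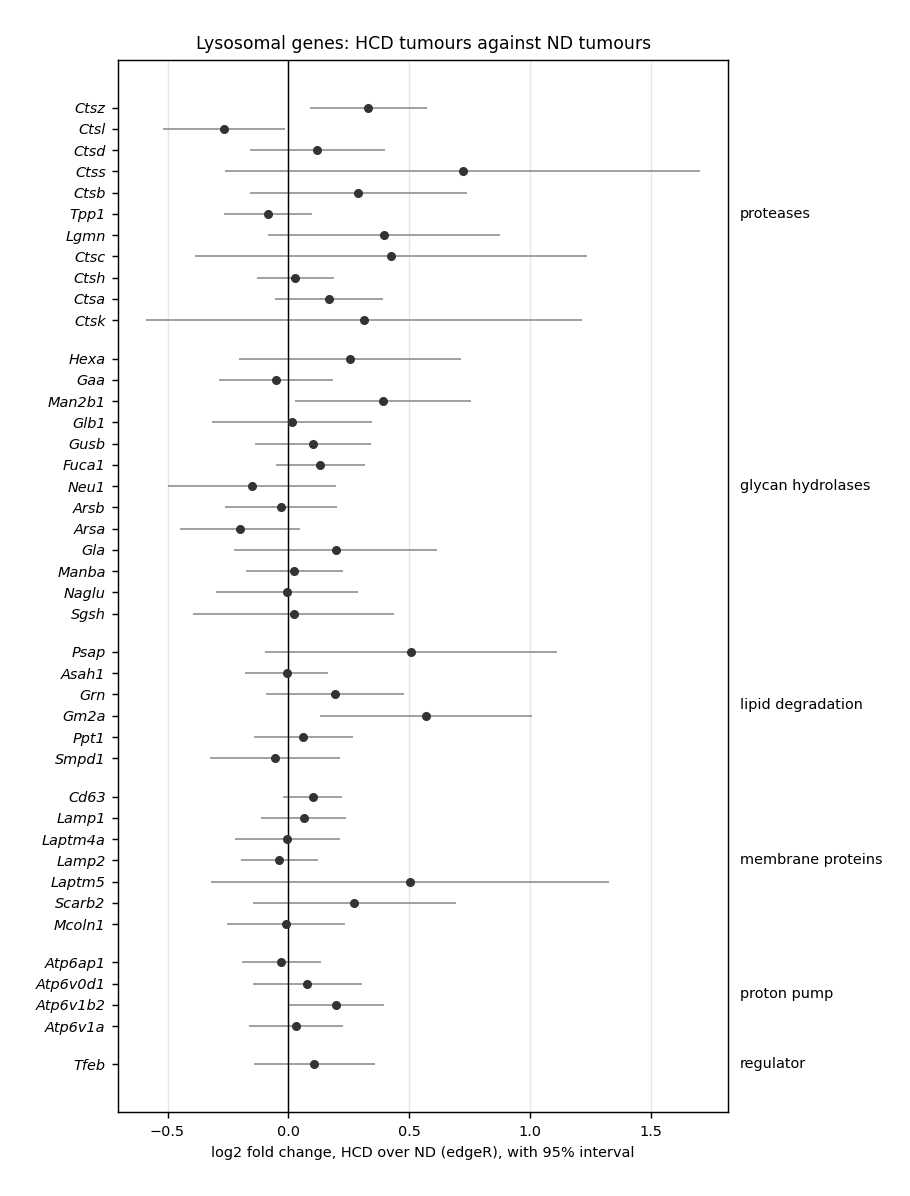
Log2 fold change of the 42 lysosomal genes, HCD over ND, from edgeR, with 95% intervals as lines and genes grouped by role. Most intervals include 0; those of Ctsz, Ctsl, Man2b1 and Gm2a do not before adjustment, and 0 of 42 genes passed the adjusted threshold.

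By role, the median log2 fold change was 0.29 for the 11 proteases (9 positive, 2 negative), 0.02 for the 13 glycan hydrolases (8 and 5), 0.13 for the 6 proteins of lipid degradation (4 and 2), 0.06 for the 7 membrane proteins (4 and 3) and 0.05 for the 4 proteins of the pump (3 and 1). The proteases summed to 3456 ± 532 CPM in HCD tumours and 3022 ± 369 CPM in ND tumours (SD, n = 3 each), and the lipid group to 2195 ± 409 CPM in HCD tumours and 1722 ± 336 CPM in ND tumours. For the pump the sums were 490.0 ± 32.4 CPM in HCD tumours and 471 ± 25.3 CPM in ND tumours. The difference between the diets was smaller than the SD of HCD tumours for the proteases and the pump, and larger than both SDs for the lipid group. The diets still overlapped in the lipid group. Its sums were 1977, 2668 and 1942 CPM in HCD 1, 2 and 3, against 1383, 2054 and 1729 CPM in ND 1, 2 and 3. These sums were not tested. The macrophage markers summed to 1716 ± 663 CPM in HCD tumours and 1240 ± 423 CPM in ND tumours, with a median log2 fold change of 0.40, and their part in the lysosomal values was not tested.

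A wider set of other lysosomal genes, taken from 4 lists by name, was read in the same way. Of 83 tested, 0 were called, the median log2 fold change was 0.06, and 59 were positive and 24 negative. Of these, 14 (16.9%) reached r of at least 0.9 with Csf1r and 10 (12.0%) with Cd68, against the 5.52% and 4.19% of all genes above. With Csf1r, the enzymes held most of them, 10 of 32, beside 1 of 25 membrane proteins, 1 of 15 pump subunits and 2 of 11 regulators. The last were Mitf (r = 0.98) and Tfec (r = 0.90), relatives of TFEB.

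In each of the 4 lists, the genes with the smallest p between the diets were read out. Pld3, a nuclease of the phospholipase D family, averaged 48.7 ± 15.4 CPM in HCD tumours and 29.2 ± 7.17 CPM in ND tumours (log2 fold change 0.74 ± 0.26 SE), and Gnptab, which starts the mannose 6-phosphate tag of lysosomal enzymes, 36.3 ± 5.55 CPM in HCD tumours and 26.2 ± 5.23 CPM in ND tumours (0.47 ± 0.18 SE). Ostm1 and Clcn7, partners in the chloride-proton exchanger, averaged 25.7 ± 4.38 and 63.8 ± 8.01 CPM in HCD tumours, against 20.6 ± 1.86 and 53.5 ± 8.80 CPM in ND tumours. None of these passed the adjusted threshold (edgeR adjusted p = 0.839 for each). Atp6v0d2, the pump subunit of osteoclasts and macrophages, had 12.4, 20.4 and 12.95 CPM in HCD tumours, against 1.79, 12.4 and 7.13 CPM in ND tumours. It varied far more than its widely used relative Atp6v0d1, with ND 1 the lowest library, and its log2 fold change was 1.10 ± 0.60 (SE). Atp6v1d had a log2 fold change of 0.13 ± 0.09 (SE), Tfec of 0.62 ± 0.34 (SE) and Fnip1 of -0.17 ± 0.17 (SE).

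**Figure D5:**
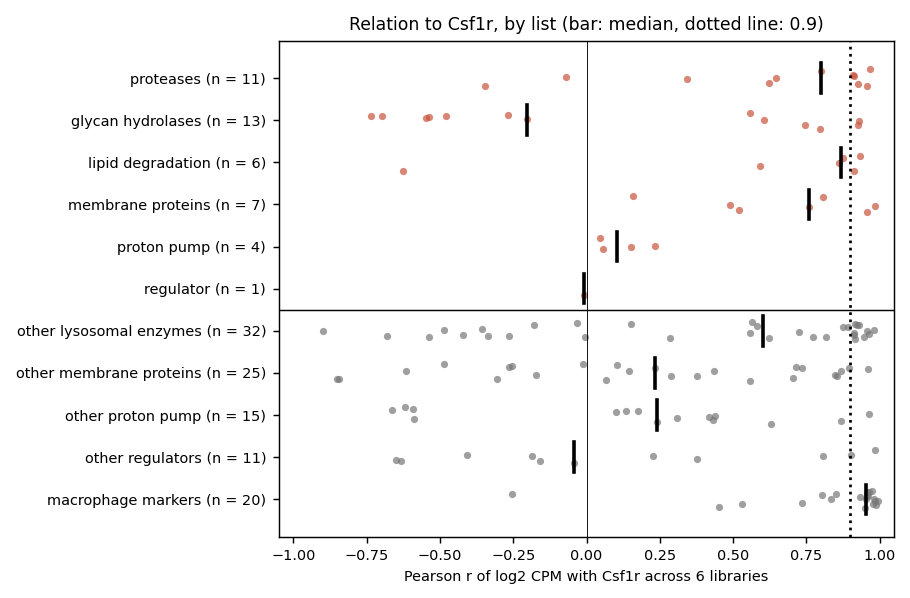
Pearson r of log2 CPM with Csf1r across 6 libraries for each gene (points), by role for the 42 lysosomal genes (red, top) and for the other lysosomal lists and the macrophage markers without Csf1r (grey, bottom); black bars are medians and the dotted line is r = 0.9. The medians are 0.80 for the proteases, -0.20 for the glycan hydrolases, 0.87 for lipid degradation, 0.76 for membrane proteins and 0.10 for the pump.

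Exons of 13 of the 42 genes overlap those of another gene, and no source used here states the strand setting of the counting or how shared reads were assigned. For Ctsd and Glb1 the overlapping gene lies on the same strand. For Glb1 that gene, Tmppe, is in the expression table, and a strand setting could not separate the reads. The partner of Ctsd, Gm49369, is not named in the expression table, nor is Gm47123, the largest partner of Ctsl. A gene that was not counted took no reads from its neighbour, though its RNA may have been counted as the neighbour's. The overlap, in the GENCODE M21 annotation, covers 39.9% of the exons of Arsb, 34.4% of Ctsd, 26.8% of Ctsl, 21.6% of Sgsh, 18.8% of Arsa, 17.4% of Ctsa and 12.8% each of Ctsb and Hexa, and less than 10 percent of Lamp1, Glb1, Ppt1, Grn and Ctsz. For Ctsa the neighbour is Pltp, the phospholipid transfer protein. The number of reads from these shared bases was not measured, and the levels of the 13 genes are uncertain.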

How the data were processed

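Per the labels' protocols, paired-end TruSeq libraries were prepared from total RNA of the 6 tumours. For 34745 genes the authors deposited a count of reads and an FPKM value in each sample. The submitters' processing notes name the mm10 build, CASAVA 1.8, TopHat2 2.0.9, HTSeq and edgeR, with no role or order. The strand setting and annotation release are not given in the sources used here. A count depends on how reads of overlapping genes were shared out, and FPKM also on the gene length used.

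Counts were tested with edgeR 4.0.16 in R 4.3.3 (quasi-likelihood, legacy form) with diet as the only term, TMM scaling and the default filter (minimum count 10, minimum total 15), adjusted by Benjamini-Hochberg over 15539 genes at 0.05. A level of 0 counts was given its limit from 3 counts of the total, which covers counting error only. Correlations used log2 CPM with a prior count of 0.5, two-sided exact permutation over 720 pairings, adjusted over 15538 genes for each macrophage gene. DESeq2 1.42.0, limma 3.58.1 (with FPKM pseudocounts of 1 and 0.1), other scalings and filters, a replicate block and leaving out libraries were alternatives. The fit without HCD 2 and ND 1 together was chosen after seeing the data. The SE of a fold change is its size over the root of F. The fit was checked on simulated counts.

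The members and lists were chosen with earlier results of these data known. Values per library are given for Csf1r and Cd68, for the gene of each role with the highest mean FPKM, the smallest p or the highest r with Csf1r, and for 15 genes set by name. Ctsc, Arsa, Scarb2, Tpp1 and Atp6v0d2 were added after their values were seen. Positions are from GENCODE M21 (GRCm38), 1-based. Replicates differed by more than counting noise (chi-square per degree of freedom 16.9 to 32.0), so none is a library deposited again; this does not show separate animals.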

Additional observations from a re-analysis of the deposited data

How the results depend on the processing

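The count of lysosomal genes called was 0 in all 19 alternatives, with the smallest adjusted p of a member at 0.398 (DESeq2). Over all genes, DESeq2's Wald test called 6 genes, all lower and 0 of them members, and fits without 1 library called 0 to 2. Every member had at least 185 counts in each library, and there were 3 tumours per diet; the limits that depth and the number of tumours set were not compared. The median log2 fold change of the members ran from 0.015 to 0.11 without 1 library, and was -0.00465 without HCD 2 and ND 1 together. The number of members with r of at least 0.9 was 4 to 14 for Csf1r and 4 to 14 for Cd68 without 1 library. By Spearman rho it was 2 for Csf1r and 1 for Cd68, and without HCD 2 and ND 1 together it was 3 and 0. Over 6 libraries rho steps from 0.89 to 0.94, so a cut at 0.9 asks for at least 0.94 of rho. No share of all tested genes stands beside the counts by rho or without 1 library, so nothing is read from them. Without HCD 2 and ND 1 together, the log2 fold changes of Ctsb (-0.032), Ctsd (-0.040), Ctsk (-0.27), Grn (-0.0018), Hexa (-0.056), Lamp1 (-0.010), Laptm5 (-0.095) and Ppt1 (-0.064) turned negative. Laptm4a turned positive on log2(FPKM + 1) with or without a filter and on log2(FPKM + 0.1) (0.0044 in each). Without 1 library, values crossed 0 for Atp6ap1 (-0.070 to 0.00050), Ctsk (-0.25 to 0.54), Laptm4a (-0.090 to 0.062), Mcoln1 (-0.070 to 0.073) and Ppt1 (-0.016 to 0.12). Deviations of tumours with the same number correlated at -0.33, 0.16 and 0.08, and those of tumours with unlike numbers at -0.55 to 0.55. With 3 tumours per diet, these values cannot show or exclude that the numbers pair the tumours. With the replicate number as a block, 0 genes and 0 members were called and the median log2 fold change was 0.09. The causes were not tested.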

Other observations

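Inhibitors of cathepsins were read beside the proteases. Of 9 genes listed, 6 were tested, 5 with a positive and 1 with a negative log2 fold change, and 0 were called. Cst7, cystatin F, an inhibitor of cathepsins in immune cells, averaged 4.03 ± 1.87 CPM in HCD tumours and 1.65 ± 0.674 CPM in ND tumours (SD, n = 3 each), with a log2 fold change of 1.29 ± 0.45 (SE, edgeR adjusted p = 0.839). Serpina3g, a serpin that inhibits cathepsins in T cells of mice, averaged 72.5 ± 28.2 CPM in HCD tumours and 49.3 ± 22.8 CPM in ND tumours, with a log2 fold change of 0.56 ± 0.42 (SE). The diets overlapped for Serpina3g, while for Cst7 the lowest HCD library had 2.338 CPM and the highest ND library 2.329 CPM.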
